A study of Mus musculus with 22 samples.

Results

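Mouse NIH/3T3 fibroblasts that had been given 10% serum for 12 h were compared with cells of the same line that had stayed in starvation medium for the same 12 h with doxycycline. The 4 libraries, 2 per group, were chosen by their column names in the deposited expression table, out of 22 libraries in the series. Another 2 libraries, taken at 0 h, gave the usual reference for a serum response. NIH/3T3 is an established embryonic fibroblast line, and all 6 libraries came from its derivative labelled EV, the empty-vector control of a line in which doxycycline switches on the transcription factor E2F1. Before any treatment, cells of every group spent 48 h in 0.25% heat-inactivated fetal bovine serum. The 0 h cells were taken then, the control cells went on with 500 ng/ml doxycycline and no added serum, and the serum cells received 10% serum and, as the labels describe the treatments, no doxycycline. Serum and the absence of the drug therefore cannot be told apart in the main comparison. The labels do not say whether the EV line is 1 clone, nor whether the libraries of a group came from separate cultures. The p-values therefore measure only the spread between replicate libraries, estimated over all 22 libraries of the series. In bulk RNA, fewer cells that express a gene and less RNA per cell cannot be told apart.

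Fibroblasts deprived of serum leave the division cycle and rest in G0. Growth factors, lysophospholipids and lipoproteins in serum then drive a timed response: immediate early transcription factors, cytoskeletal and matrix genes, cyclin D with its kinases, and finally the E2F factors, which are held back by pocket proteins in resting cells and switch on the genes of DNA replication. Genes of mitosis follow later in the cycle through the MuvB complex with B-MYB and FOXM1. Resting cells keep their own programme, with FOXO factors active and growth factor receptors plentiful, which growth factor signalling turns down. A 0 h reference shows what changed since the moment of stimulation, whereas a reference of the same hour also carries whatever the unstimulated cells did in the meantime.

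The values were normalized counts, 11208 genes per library, with totals from 34680926 to 37385360 and medians from 1242.5 to 1351 in the 6 libraries. Changes are differences of log2(value + 1), given with their standard error (SE), and understate the fold of genes with low values. With 2 libraries per group an exact permutation test of a single gene cannot go below p = 0.333 (two-sided), so each test borrowed the spread of all 22 libraries and all genes. Replicates differed by a median absolute log2 difference of 0.122 after serum, 0.137 in the doxycycline control and 0.146 at 0 h. The 0 h libraries differed most in genes of division: replicate 2 was above replicate 1 for all 42 genes of the G2 and mitosis list, by a median of 0.87 on the log2 scale, and the 12 h doxycycline libraries differed the same way for 41 of the 42, by 0.53. E2f1, the gene whose transgene the EV line lacks, read 1345 and 1635 in the doxycycline control and 1635 and 1655 at 0 h. Ddx3y, a Y-linked gene, was not uniform within the EV line. It read 9 and 4 at 0 h, 9 and 4 in the doxycycline control and 29 and 19 after 12 h of serum. Both 12 h serum libraries thus lay above both libraries of either reference. Ddx3y read 103 and 71 after 2 h of doxycycline, 132 and 170 after 2 h of serum and 18 to 48 in the 6 h libraries. In the 8 libraries of the E2F1 line it read 316 to 580. The 2 h and 6 h libraries enter the time courses and the shared estimate of spread. The part of these Ddx3y differences in other genes, also in the main comparison, was not tested. Of 14 fibroblast markers 13 were in the table, with summed levels of 1164420 to 1279419 in the doxycycline control and 839073 to 1005155 after serum. The marker lists of endothelium and skeletal muscle had no gene in the table, and those of epithelium, leukocytes, adipocytes and neurons had 1 or 2 each, which summed to at most 963 in any of the 6 libraries.

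Promoter sequences of some list members are shown first, because the main gene groups differ in the short motifs they carry. Only members whose promoter held the motif searched for in their list were eligible, and called genes of largest change among them were taken. That each promoter shown holds its motif was therefore fixed by the choice. Members of larger change, such as Ccn2, Mybl2 and Insig2, were passed over. Each sequence is the 250 bases before the annotated start from the RefSeq table for GRCm38.p6, read 5′ to 3′ on the gene's strand, with motif matches in capitals. Cdc6 (chr11:98907901-98908150, plus strand), which loads the replicative helicase, and Mcm5 (chr8:75109259-75109508, plus strand), a helicase subunit, hold 1 and 3 matches to an E2F site, searched on both strands. The 4 words counted as this site were TTCCCGC and its variants with other middle letters, namely TTGGCGC followed by TTCGCGC and lastly TTGCCGC, and 2 of the matches in Mcm5 overlap.
Cdc6: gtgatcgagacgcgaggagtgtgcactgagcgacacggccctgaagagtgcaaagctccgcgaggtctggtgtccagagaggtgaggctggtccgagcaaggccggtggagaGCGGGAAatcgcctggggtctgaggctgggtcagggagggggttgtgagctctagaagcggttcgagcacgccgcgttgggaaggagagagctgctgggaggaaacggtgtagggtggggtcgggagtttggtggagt
Mcm5: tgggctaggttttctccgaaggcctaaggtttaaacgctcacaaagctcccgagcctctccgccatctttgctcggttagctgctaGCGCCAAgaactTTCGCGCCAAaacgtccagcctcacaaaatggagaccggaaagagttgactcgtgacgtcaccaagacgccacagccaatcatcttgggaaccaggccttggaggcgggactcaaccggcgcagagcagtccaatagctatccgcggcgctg
Ncapg (chr5:45669675-45669924, plus strand), a condensin subunit, and Cdk1 (chr10:69352913-69353162, minus strand), the mitotic kinase, hold 1 and 2 matches to the cell cycle homology region, TTTGAA on either strand, an element bound by MuvB.
Ncapg: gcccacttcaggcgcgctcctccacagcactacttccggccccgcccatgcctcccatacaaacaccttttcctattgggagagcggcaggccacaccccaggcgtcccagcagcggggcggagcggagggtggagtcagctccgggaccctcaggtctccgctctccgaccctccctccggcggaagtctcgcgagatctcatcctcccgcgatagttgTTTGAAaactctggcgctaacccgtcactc
Cdk1: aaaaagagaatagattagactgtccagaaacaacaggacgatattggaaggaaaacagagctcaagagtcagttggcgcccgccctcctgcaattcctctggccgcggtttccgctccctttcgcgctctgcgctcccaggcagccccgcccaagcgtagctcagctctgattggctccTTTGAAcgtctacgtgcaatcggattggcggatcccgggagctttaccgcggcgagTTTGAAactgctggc
Ccn1 (chr3:145649986-145650235, minus strand), a matricellular protein, holds a TEAD site (GGAATG, either strand), the motif of the factors that carry YAP to DNA. Hmgcs1 (chr13:119690101-119690350, plus strand), an enzyme of cholesterol synthesis, holds a sterol regulatory element (TCACNCCAC, either strand). It was the only 1 of the sterol list's 29 matched promoters with this element.
Ccn1: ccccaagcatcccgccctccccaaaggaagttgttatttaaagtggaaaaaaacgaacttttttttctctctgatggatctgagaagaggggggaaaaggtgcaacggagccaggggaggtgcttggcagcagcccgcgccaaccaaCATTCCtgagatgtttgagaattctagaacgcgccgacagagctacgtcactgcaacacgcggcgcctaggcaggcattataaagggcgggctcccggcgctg
Hmgcs1: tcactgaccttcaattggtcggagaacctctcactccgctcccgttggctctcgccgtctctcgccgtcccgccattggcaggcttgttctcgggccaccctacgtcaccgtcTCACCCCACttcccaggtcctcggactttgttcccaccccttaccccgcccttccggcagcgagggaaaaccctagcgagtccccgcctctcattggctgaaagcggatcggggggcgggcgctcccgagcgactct
The E2F site was in 46.4% of the 28 matched promoters of the licensing list and 33.3% of the 39 promoters of the fork list, against 7.89% of all 32851 promoters in the RefSeq table and 14.4% of those of genes in the expression table. The cell cycle homology region was in 40.5% of the 37 promoters of the G2 and mitosis list, against 16.0% of all promoters. Among genes at least 2-fold higher after serum than in the doxycycline control the E2F site was in 21.1% of promoters, and among those at least 2-fold lower in 9.42%. A match describes the letters and is no evidence of binding.

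Serum for 12 h moved most of the measured transcriptome away from the same-hour control. Of 11208 genes 4244 were higher (37.9%) and 3647 lower (32.5%) at an adjusted p of at most 0.05 (limma, Benjamini-Hochberg over all genes), 7891 or 70.4% in all. At least 2-fold higher were 1522 genes (13.6%), and at least 2-fold lower were 1226 (10.9%). The median gene differed by 0.03 on the log2 scale. Which direction held more calls depended on the scaling: 3799 were higher and 4171 lower with library totals made equal, and 3732 and 4187 with quantile normalization. Against 0 h, serum gave 4039 higher (36.0%) and 3328 lower (29.7%) genes. The doxycycline control itself differed from 0 h in 467 genes (4.17%), of which 84 were higher (0.749%) and 383 lower (3.42%). For a given gene the serum result against the control minus that against 0 h is exactly minus the control's own difference, so its test is the test of whether the choice of reference changed the gene's result. That count was less stable than the other 2: 1886 genes had an unadjusted p under 0.05, and it was 26 without the 0 h replicate 2, 803 without the 0 h replicate 1, 75 without the doxycycline replicate 1 and 321 without the doxycycline replicate 2. Of the 36 genes named here that were called between the control and 0 h, 35 still passed without the 0 h replicate 1 and 8 without the 0 h replicate 2: Cdc6, Adgrg1, Gli2, Eme1, Vip, Mcm5, Klf4 and Acta2.

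**Figure D1:**
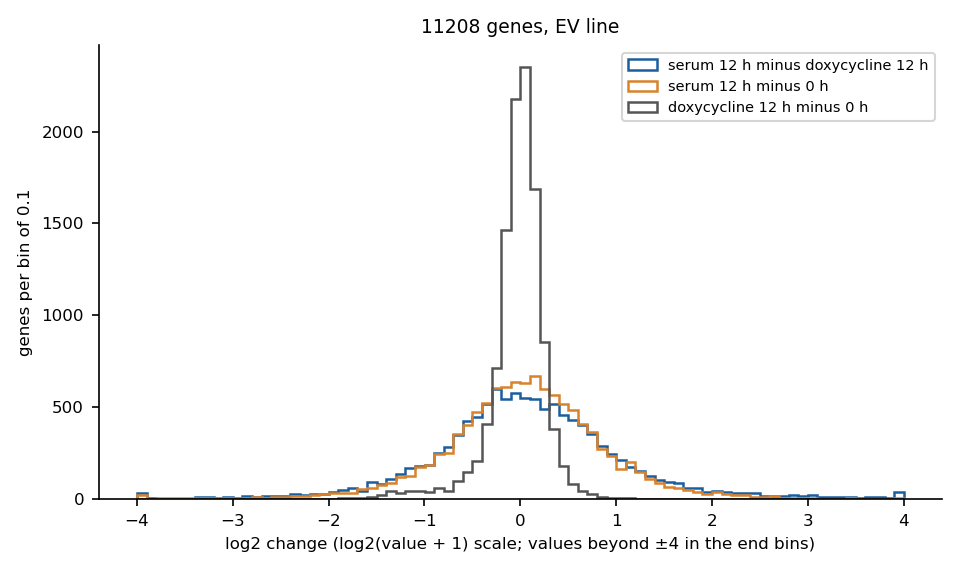
Distribution of the log2 change of 11208 genes in the EV line, as genes per bin of 0.1, for serum 12 h minus doxycycline 12 h, serum 12 h minus 0 h and doxycycline 12 h minus 0 h. The curves of serum against either reference are broad and nearly coincide (medians 0.034 and 0.05), while doxycycline against 0 h is narrow, with a tail of lower genes.

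**Figure D2:**
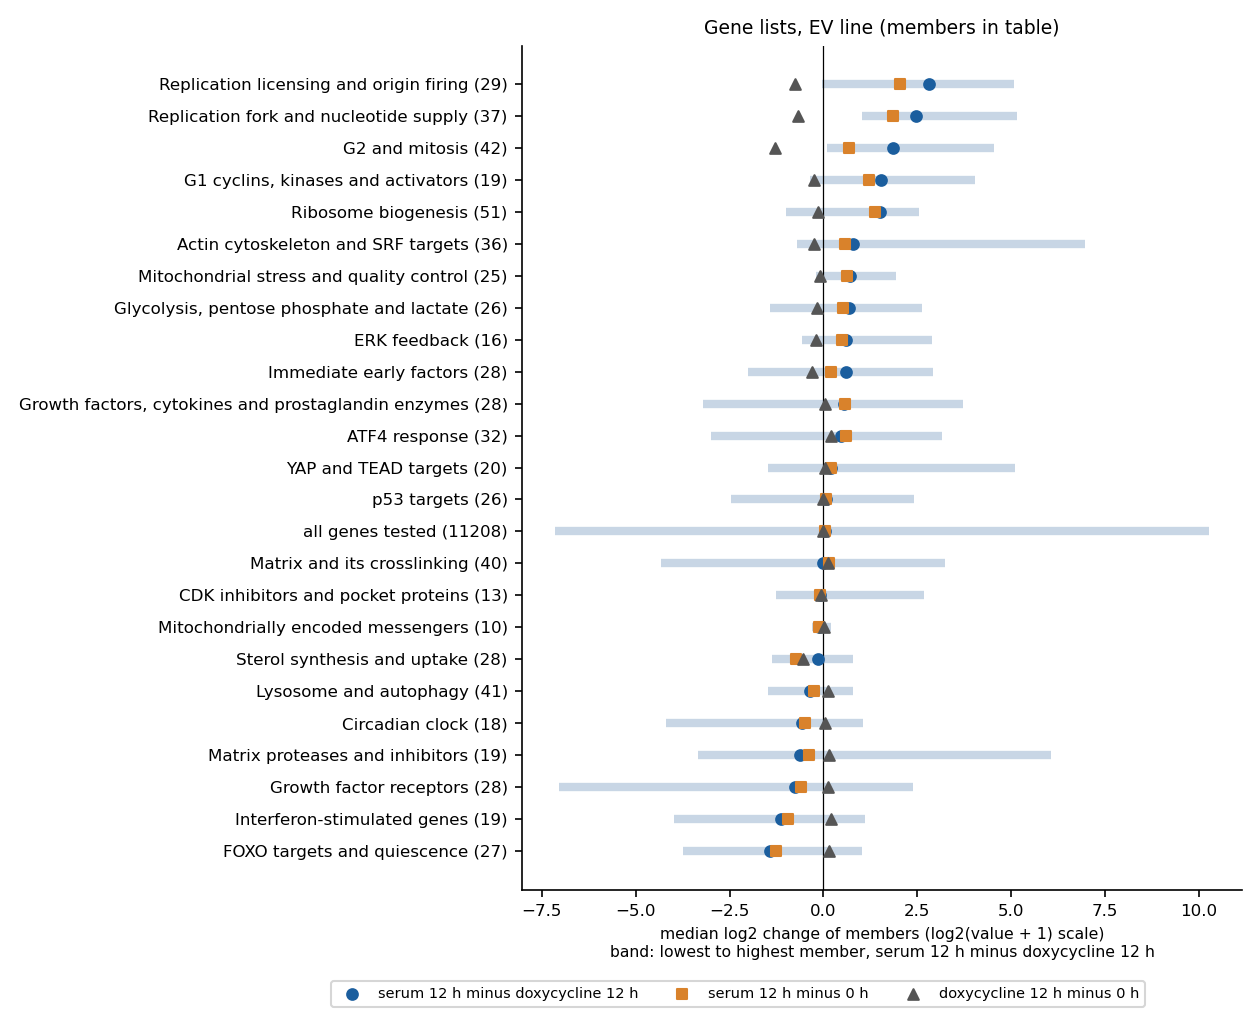
Median log2 change of the members of 24 gene lists and of all genes, in the 3 comparisons (points), with the range of members for serum minus doxycycline (bands). Medians of the licensing, fork and mitosis lists are higher against doxycycline than against 0 h, those of the sterol list lie at -0.14 and -0.73, and most other lists have close medians with either reference.

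Genes of replication rose together after serum, and among the 24 lists the replication lists had the 2 highest medians. In the list of licensing and origin firing, 28 of 29 genes were higher than in the doxycycline control and none lower, with a median of 2.80. The list of fork proteins and nucleotide supply had 37 of 37 higher, with a median of 2.47. Against 0 h the counts were 28 of 29 and 37 of 37, with medians of 2.05 and 1.85. The lists were assembled with results of these data known, so their counts are descriptions. Each count stands beside the share of all genes, 37.9% higher and 32.5% lower against doxycycline and 36.0% and 29.7% against 0 h. For the control against 0 h these shares were 0.749% and 3.42%.

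Cdc6 (chromosome 11, 98907801 to 98923940, GRCm38) read 78 and 87 in the doxycycline control, 226 and 351 at 0 h, and 3069 and 2615 after serum. Both serum libraries lay far above all 4 others, and both control libraries lay below both 0 h libraries. The log2 change was 5.09 ± 0.21 (SE) against doxycycline (adjusted p = 2.68e-12) and 3.33 ± 0.21 against 0 h (adjusted p = 5.45e-10), and the control's own difference from 0 h was -1.76 ± 0.21 (adjusted p = 0.000196). Mcm5, whose promoter is shown above with 3 overlapping or adjacent E2F matches, went from 479 and 720 to 12093 and 10889, a log2 change of 4.29 against doxycycline and 2.78 against 0 h (adjusted p = 1.12e-11 and 2.83e-09). Mcm3, another helicase subunit, went from 852 and 1013 to 12669 and 11804.

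Ung, which removes uracil from DNA, rose most in the fork list, from 32 and 48 in the control to 1522 and 1370. The 0 h libraries read 90 and 164, so its log2 change was 5.17 against doxycycline and 3.56 against 0 h (adjusted p = 1.65e-10 and 2.99e-08). Rrm2, the small subunit of ribonucleotide reductase, rose from 403 and 413 to 8968 and 8394, and Pcna, the sliding clamp, from 1572 and 1681 to 14924 and 12962. Pcna has named pseudogene copies in the mouse annotation, so its reads may be split between loci.

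In the doxycycline control these same lists had moved the other way since 0 h. Lower than at 0 h were 17 of 29 licensing genes and 28 of 37 fork genes, none was higher, and the medians were -0.77 and -0.68. Without the 0 h replicate 2 these counts were 3 and 0, with medians of -0.51 and -0.45, and without replicate 1 they were 22 and 31, with medians of -1.06 and -1.01. Cdc6 stayed lower in both cases, by a log2 difference of -1.44 (adjusted p = 0.00967) and -2.08 (adjusted p = 0.00011). Over the earlier doxycycline hours its values were 356 and 307 at 2 h and 130 and 179 at 6 h.

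Most regulators of G1 rose with serum. Of 19 G1 cyclins, kinases and activators 18 were higher than in the control and 1 lower, with a median of 1.54 (17 and 1 against 0 h, median 1.22). Ccne1, which encodes cyclin E1, the partner of CDK2 at the G1/S transition, went from 165 and 224 to 3569 and 2763, and Ccne2 from 145 and 189 to 1974 and 1697. E2f2, an activating E2F, stood at 9 and 35 in the control, 54 and 85 at 0 h and 298 and 330 after serum. The 2 control libraries were the lowest of the 6, and the log2 change was 4.05 ± 0.46 against doxycycline and 2.19 ± 0.46 against 0 h (adjusted p = 3.81e-07 and 0.000439).

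E2f1 went from 1345 and 1635 to 4615 and 4247 (log2 change 1.58, adjusted p = 6.90e-10), Ccnd1, cyclin D1, from 1134 and 1176 to 7563 and 6251 (2.57, adjusted p = 2.64e-08), and Myc from 1531 and 1291 to 3798 and 3834 (1.44, adjusted p = 1.38e-07). For each of these 3 the control did not differ from 0 h by the test (adjusted p = 0.536, 0.0502 and 0.242). Tfdp2, a dimer partner of E2F factors, was the lower member, at 1528 and 1604 in the control and 1278 and 1145 after serum. Among 13 CDK inhibitors and pocket proteins 5 were higher and 5 lower (38.5% each), near the shares of all genes (37.9% and 32.5%). Rbl1, encoding the pocket protein p107, rose from 402 and 352 to 2522 and 2328. Rb1, its relative that binds the activating E2Fs, fell from 764 and 756 to 319 and 312, and Cdkn1b, the inhibitor p27, from 5688 and 6324 to 2629 and 2614. Rb1, Ccnd1, Ccne2 and, among the mitotic genes, Ccna2 and Ncapg overlap annotated neighbours, and Ccnb1 has a named pseudogene; with strand use unknown their counts may hold reads of those loci. Cdkn1a, the inhibitor p21, rose from 2820 and 2298 to 3624 and 3748 (log2 change 0.53, adjusted p = 0.000165).

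Mitotic genes were higher after serum by a larger margin against the control than against 0 h, and of the 24 lists theirs had the largest median difference between control and 0 h. Against the doxycycline control 37 of 42 genes were higher and none lower, with a median of 1.85, and against 0 h 20 were higher and 2 lower, with a median of 0.69. The control differed from 0 h in 34 of the 42, all lower, with a median of -1.28. Its calls depended on which 0 h library was used: without the 0 h replicate 2 none of the 42 passed (median -0.80), and without replicate 1 all 42 did (median -1.71). The count against 0 h moved likewise, to 26 higher and none lower without replicate 2 and to 13 higher and 6 lower without replicate 1. The log2 changes against doxycycline use neither 0 h library, but the calls do, since all 22 libraries share the estimate of spread.

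The mean log2 level of the 42 genes was 10.13 and 10.96 at 0 h, 10.49 and 10.35 after 2 h of doxycycline, 9.78 and 10.62 after 6 h, and 9.07 and 9.60 after 12 h. In serum it was 9.86 and 9.59 at 2 h, 9.67 and 10.44 at 6 h and 11.21 and 11.09 at 12 h. Both 12 h control libraries lay below both 0 h libraries. The upper control library was level with the lower 2 h serum library, and the 0 h replicate 2 lay just under the 12 h serum pair. Taken by replicate number, the level fell from 10.13 to 9.07 in replicate 1 and from 10.96 to 9.60 in replicate 2.

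**Figure D3:**
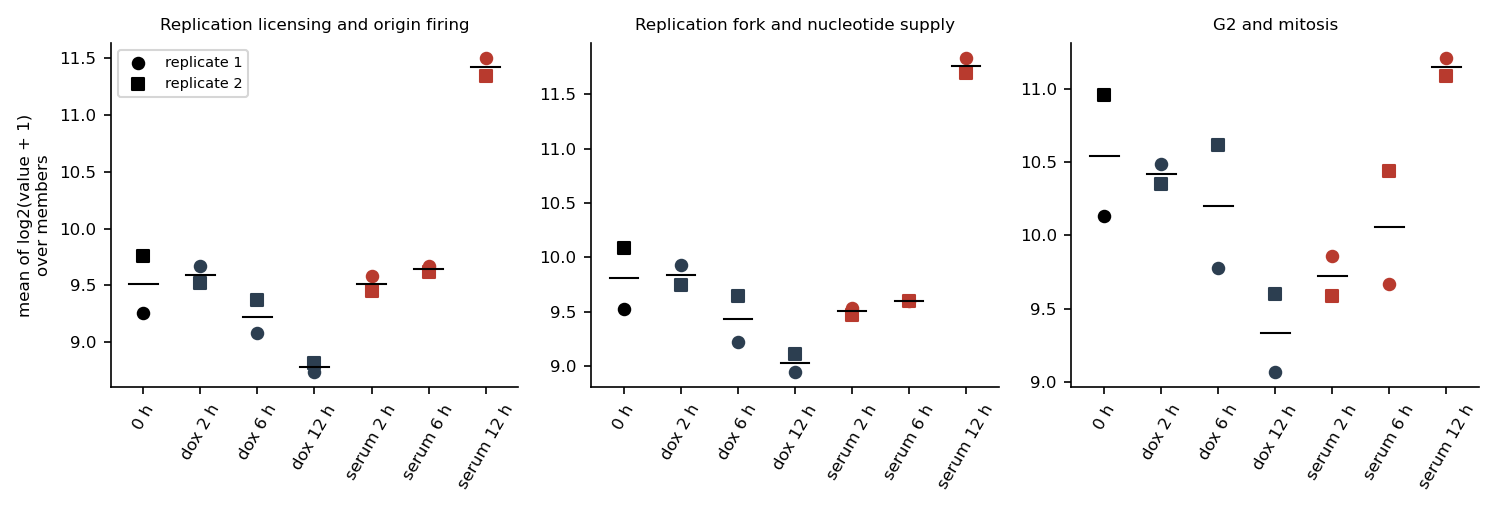
Mean of log2(value + 1) over the members of 3 lists in each of the 14 EV libraries (points, shape by replicate number) with group means (lines); the y axes differ between panels. In every panel the serum 12 h libraries are highest and the doxycycline 12 h group mean is lowest; in the mitosis panel the doxycycline 12 h replicate 2, at 9.60, is level with the serum 2 h replicate 2, at 9.59, and the 0 h libraries lie apart, at 10.13 and 10.96.

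Mybl2, which encodes B-MYB, rose from 124 and 110 in the control to 2821 and 2711 (log2 change 4.55, adjusted p = 6.18e-11), with 176 and 382 at 0 h. Ncapg and Cdk1, shown above with the cell cycle homology region, went from 263 and 388 to 2600 and 2237 and from 824 and 1317 to 7481 and 6152. Their log2 changes were 2.91 and 2.70 against doxycycline (adjusted p = 9.76e-08 and 5.56e-08) and 1.47 and 1.42 against 0 h (adjusted p = 0.000303 and 0.000137). Ccna2, cyclin A2, read 494 and 833 in the control, 1291 and 2575 at 0 h and 4503 and 3998 after serum.

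Ccnb1, cyclin B1, the activator of CDK1 in mitosis, gave opposite signs with the 2 references. Its values were 485 and 635 in the control, 1017 and 895 after serum, and 935 and 1799 at 0 h. Both serum libraries exceeded both controls, and they overlapped the 0 h libraries. The log2 change was 0.78 ± 0.28 against doxycycline (adjusted p = 0.020), -0.44 ± 0.28 against 0 h (adjusted p = 0.175) and -1.22 ± 0.28 for doxycycline against 0 h (adjusted p = 0.0182). Without the doxycycline replicate 1 or the serum replicate 1 the difference from doxycycline no longer passed (adjusted p = 0.149 and 0.10), and without the 0 h replicate 2 that between control and 0 h did not (adjusted p = 0.433).

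**Figure D4:**
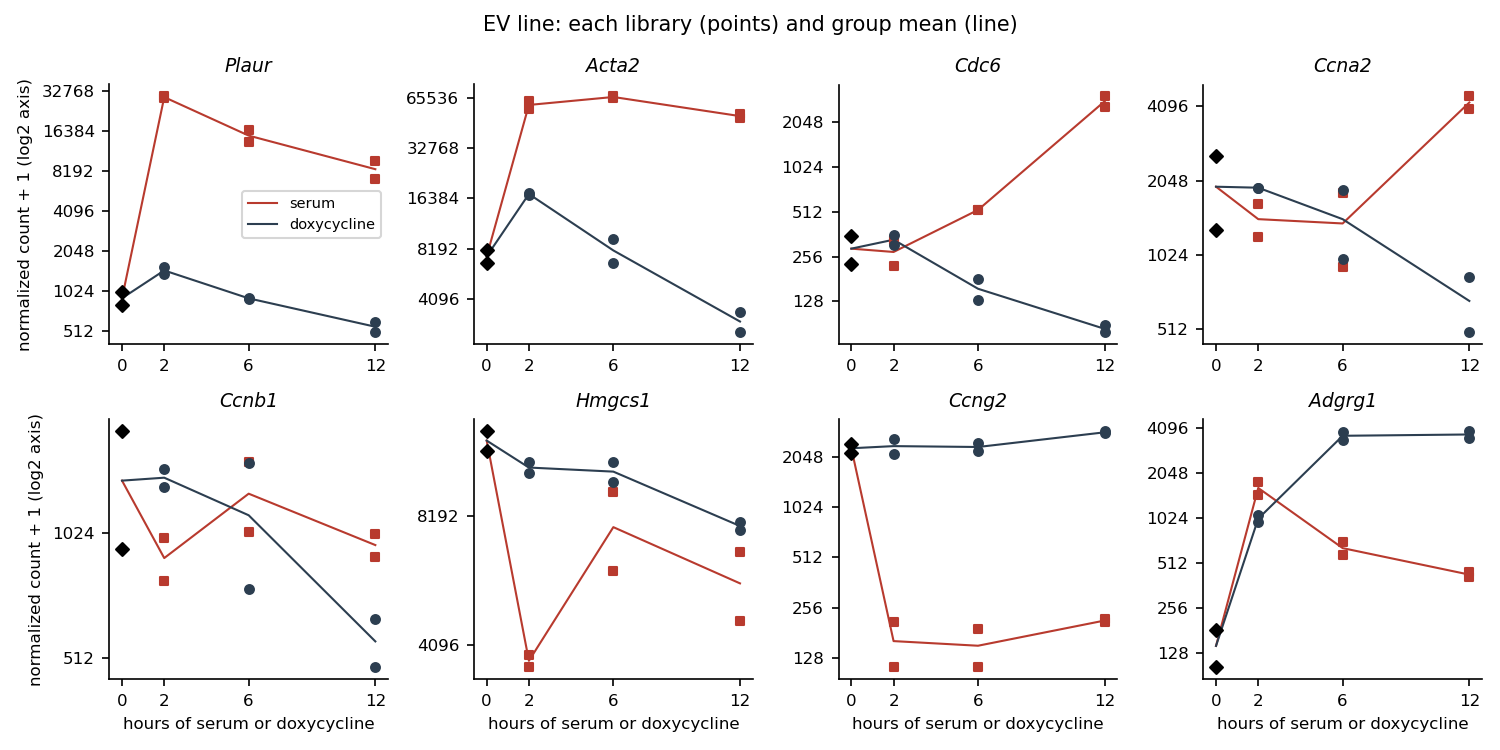
Normalized count plus 1, on a log2 axis, of 8 genes in each EV library at 0, 2, 6 and 12 h of serum or doxycycline (points), with group means (lines); the 0 h libraries are shared by both arms. Cdc6, Ccna2 and Acta2 fall in doxycycline by 12 h while serum raises them, Ccng2 falls in the serum arm, and Adgrg1 climbs to between 3410 and 3931 at 6 and 12 h of doxycycline.

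Most genes of the actin cytoskeleton list rose with serum. Of 36 genes of the actin cytoskeleton and of SRF, the factor that responds to free actin, 29 were higher than in the control and 3 lower, with a median of 0.79 (25 and 3 against 0 h, median 0.57). Acta2, smooth muscle actin (chromosome 19, 34241090 to 34255590, minus strand), went from 2592 and 3433 to 51992 and 49641. It had been 6729 and 8028 at 0 h and 17249 and 17556 after 2 h of doxycycline, so both 12 h controls lay below every earlier library of that arm. The log2 change was 4.09 ± 0.14 against doxycycline, 2.79 ± 0.14 against 0 h and -1.30 ± 0.14 for the control against 0 h (adjusted p = 3.81e-13, 3.51e-11 and 4.49e-05).

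Actg2, another smooth muscle actin, went from 21 and 27 to 1403 and 1165, with 30 and 18 at 0 h, and Tnnt2, a cardiac troponin, from 0 and 2 to 176 and 270. The lower members were small: Cnn3, a calponin, fell from 16900 and 16664 to 10558 and 10024, and Csrp2 passed with a log2 difference of -0.52 (adjusted p = 0.047) that was -0.10 without the doxycycline replicate 2. A CArG box, the SRF motif, was in 22.5% of the list's 40 promoters, against 1.47% of all promoters. Known SRF targets were put in this list, so a high share was partly set by that choice.

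Among 20 targets of YAP and TEAD 9 (45.0%) were higher and 6 lower, near the shares of all genes (37.9% and 32.5%). Ccn2, connective tissue growth factor, read 162 and 233 in the control, 539 and 1298 at 0 h and 7271 and 6262 after serum, a log2 change of 5.11 against doxycycline and 3.01 against 0 h (adjusted p = 7.54e-10 and 8.96e-07). Ccn1, the promoter shown with a TEAD site, went from 1447 and 1033 to 32644 and 22677, with 3366 and 5576 at 0 h. Ccn1 and Ccn2 were lower in the control than at 0 h, by log2 differences of -1.82 and -2.10 (adjusted p = 0.0036 and 0.00349; without the 0 h replicate 2, adjusted p = 0.118 for each). Rbms3 and Ajuba were the lower members of largest size, at log2 changes of -1.48 and -0.53. The TEAD site was in 38.9% of the list's 18 promoters and in 12.6% of all promoters. Since the list was made of known YAP and TEAD targets, that difference is no separate evidence about these data.

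Immediate early genes were mixed at this hour, long after their usual peak. Of 28, 15 (53.6%) were higher and 5 (17.9%) lower than in the control, against 37.9% and 32.5% of all genes. Against 0 h 10 (35.7%) were higher and 6 (21.4%) lower, with 36.0% and 29.7% of all genes. Fosl1, the late member of the FOS family, rose from 172 and 108 to 1089 and 1009, while Fos itself read 105 and 61 in the control and 99 and 66 after serum, overlapping (log2 difference 0.01, adjusted p = 0.979). Fos had reached 396 and 406 after 2 h of serum. Jund, a JUN family member, fell from 2633 and 2730 to 671 and 875.

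Klf4, a factor linked to growth arrest, and Egr1 were called between the control and 0 h. Klf4 rose in doxycycline, from 1268 and 1053 at 0 h to 2996 and 2071 at 12 h (log2 change 1.11, adjusted p = 0.000633), and read 620 and 608 after serum. Its fall with serum was therefore -2.02 against doxycycline and -0.91 against 0 h (adjusted p = 1.61e-09 and 3.86e-05). Egr1, a growth-factor-induced zinc finger factor, read 3313 and 3708 at 0 h, 1701 and 1340 in the control and 2128 and 3244 after serum. It was higher than the control by 0.80 (adjusted p = 0.00453; 0.102 without the serum replicate 2), and stood below 0 h by a log2 difference of -0.42 that did not pass (adjusted p = 0.116).

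Of 16 target and feedback genes of ERK signalling 10 (62.5%) were higher and 1 (6.25%) lower, against 37.9% and 32.5% of all genes. Etv4, an ETS factor, rose from 214 and 258 to 2091 and 1432, and Dusp6, a phosphatase that acts on ERK, from 1067 and 907 to 6118 and 5940. Both were lower in the control than at 0 h, where they read 559 and 585 and 1585 and 1912 (log2 differences -1.28 and -0.82, adjusted p = 0.00618 and 0.0129). Spry1, an inhibitor of receptor signalling, was the lower member, at 474 and 425 in the control and 328 and 275 after serum (adjusted p = 0.0116; 0.0998 without the serum replicate 2).

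Growth factors and their receptors moved in different directions. Of 28 growth factors, cytokines and prostaglandin enzymes 15 were higher and 7 lower, with a median of 0.56, whereas of 28 receptors 5 were higher and 17 lower, with a median of -0.77. Ereg, an EGF receptor ligand, rose from 271 and 132 to 2877 and 2218, and Fgf2 from 105 and 70 to 1540 and 784, although overlapping genes at the Fgf2 locus, where the use of strand is not known, make its count uncertain. Inhba, the activin A subunit, rose from 606 and 493 to 3168 and 3365. Igf1, insulin-like growth factor 1, fell from 765 and 781 to 154 and 120, and Angpt1, an angiopoietin, from 233 and 298 to 20 and 38.

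Pdgfra, the PDGF receptor alpha, fell from 89689 and 84154 in the control to 11978 and 8986, a log2 change of -3.07 ± 0.19 against doxycycline and -2.63 ± 0.19 against 0 h (adjusted p = 2.19e-10 and 2.65e-09). The 0 h libraries read 71387 and 57591 and the control was not called different from them (adjusted p = 0.255). Agtr2, an angiotensin receptor, fell from 2087 and 1191 to 15 and 8 (log2 change -7.04, adjusted p = 1.93e-11), with 1427 and 734 at 0 h. Flt1, a VEGF receptor, went the other way, from 192 and 124 to 824 and 798.

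Of 40 extracellular matrix genes 14 (35.0%) were higher and 15 (37.5%) lower, with a median of -0.01, close to the 37.9% and 32.5% of all genes, so the count does not set the list apart. Col3a1, the chain of type III collagen, fell from 218344 and 191004 to 17487 and 24458 (log2 change -3.30, adjusted p = 6.88e-11), and Ogn, the proteoglycan osteoglycin, from 3995 and 3917 to 209 and 185. Tnc, tenascin C, rose from 12586 and 11471 to 69750 and 49710, and Mgp, matrix Gla protein, from 306 and 270 to 2651 and 2851. Ogn lies across Cenpp on the map, so reads there cannot be assigned to one gene without strand.

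Of 19 matrix proteases and inhibitors 5 (26.3%) were higher and 10 (52.6%) lower, against 37.9% and 32.5% of all genes. Plaur, the urokinase receptor (chromosome 7, 24462484 to 24475968, plus strand), read 597 and 494 in the control, 791 and 1002 at 0 h and 9826 and 7084 after serum. Both serum libraries lay above all 4 others. The log2 change was 3.94 ± 0.19 against doxycycline and 3.23 ± 0.19 against 0 h (adjusted p = 9.44e-12 and 1.67e-10). Its serum values were higher at the earlier hours, 30027 and 29174 at 2 h and 16687 and 13641 at 6 h. Mmp9, gelatinase B, rose in doxycycline from 1453 and 1288 at 0 h to 3425 and 3040 (log2 change 1.24, adjusted p = 0.00524; 0.118 without the 0 h replicate 2) and was 592 and 494 after serum, so its fall was -2.57 against the control and -1.34 against 0 h.

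Genes of ribosome production were mostly higher with either reference, with similar medians. Of 51 ribosome biogenesis genes 47 were higher and 1 lower than in the control, with a median of 1.52 (48 and 2 against 0 h, median 1.38), and the control differed from 0 h in 1 higher and 5 lower genes, with a median of -0.14. Nhp2, a protein of the snoRNPs that guide RNA pseudouridylation, went from 1057 and 1097 to 6553 and 6063, and Rrp9, a U3 snoRNP protein, from 499 and 535 to 2698 and 2675. Ddx10, an RNA helicase, fell from 4130 and 4262 to 2022 and 2168. Mitochondrial stress and quality control genes followed, with 20 of 25 higher and none lower. Hspd1, the chaperonin HSP60, rose from 9195 and 8788 to 36014 and 32769; it shares sequence with several pseudogenes.

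Most sterol genes were lower after serum than at 0 h, and fewer were called lower than in the control. Of 28 genes of sterol synthesis and uptake 22 were lower (78.6%, against 29.7% of all genes) and 1 higher after serum than at 0 h, with a median of -0.73. Against the doxycycline control 11 were lower (39.3%, near the 32.5% of all genes) and 2 higher, with a median of -0.14. The control itself was lower than 0 h in 15 of the 28, none higher, with a median of -0.54. The 11 became 3 without the serum replicate 1, and the 15 became 0 without the 0 h replicate 2 at nearly the same median (-0.52). The 2 serum libraries differed here: replicate 2 exceeded replicate 1 in 26 of the 28 genes, by a median of 0.37.

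Hmgcs1, the enzyme before HMG-CoA reductase, read 11630 and 12909 at 0 h, 7906 and 7599 in the control and 4665 and 6726 after serum. The 3 pairs did not overlap. Its log2 change was -1.13 ± 0.17 against 0 h (adjusted p = 1.19e-05), -0.47 ± 0.17 against doxycycline (adjusted p = 0.0187; 0.334 without the serum replicate 1) and -0.66 ± 0.17 for the control against 0 h (adjusted p = 0.0315; 0.356 without the 0 h replicate 2). Insig2, which retains the sterol sensor in the endoplasmic reticulum, gave nearly the same value with both: 2328 and 2026 in the control, 2062 and 2261 at 0 h and 760 and 925 after serum, a log2 change of -1.37 and -1.36 (adjusted p = 1.07e-09 and 2.11e-09). Tm7sf2, a sterol reductase, fell by 1.15 against doxycycline and by 1.53 against 0 h. Ebp and Stard4, a sterol isomerase and a cholesterol carrier, were higher than in the control by 0.78 and 0.42 (adjusted p = 5.96e-05 and 0.00774; for Stard4 0.0846 without the serum replicate 2); against 0 h their differences were 0.32 and -0.22 (adjusted p = 0.049 and 0.145). The sterol regulatory element was in 3.45% of the list's 29 promoters and 1.05% of all, while a CCAAT box was in 72.4% and 33.8%.

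Of the other metabolic lists, those of glycolysis and of lysosomes gave similar counts with both references, and that of the ATF4 response differed more. Of 26 genes of glycolysis, the pentose phosphate path and lactate 18 were higher and 4 lower (17 and 4 against 0 h), with Hk2, hexokinase 2, at 534 and 363 in the control and 2803 and 2614 after serum. Of 32 ATF4 response genes 16 were higher and 6 lower than in the control and 19 and 2 against 0 h, and 4 were higher in the control than at 0 h. Stc2, a secreted glycoprotein, rose from 98 and 49 to 739 and 535, Mthfd2, a mitochondrial folate enzyme, from 795 and 698 to 4145 and 3550, and Ddit3, the stress factor CHOP, fell from 945 and 1037 to 401 and 479. Of 41 lysosome and autophagy genes 24 (58.5%) were lower and 5 (12.2%) higher than in the control, and 22 and 6 against 0 h. Map1lc3b, the autophagosome protein LC3B, fell from 7831 and 7668 to 2765 and 2836, and Sqstm1, the autophagy receptor p62, from 20555 and 16481 to 6974 and 6947.

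Genes of the resting programme were lower after serum with either reference. Of 27 FOXO targets and quiescence genes 21 were lower and 1 higher than in the control, with a median of -1.41, and 22 and 1 against 0 h, with a median of -1.27. None of the 27 was called between the control and 0 h, where the median was 0.14. Ccng2, cyclin G2, a FOXO target that restrains the cycle (chromosome 5, 93267257 to 93276231), read 2912 and 2819 in the control, 2442 and 2159 at 0 h and 219 and 209 after serum, a log2 change of -3.74 and -3.42 (adjusted p = 1.36e-10 and 8.18e-10). Fbxo32, the ubiquitin ligase atrogin-1, fell from 938 and 819 to 81 and 91, and Pik3ip1, an inhibitor of PI3 kinase, from 2220 and 2532 to 526 and 583. Cited2, a transcriptional cofactor, was the higher member, at 4985 and 4900 in the control and 10232 and 10117 after serum.

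Interferon-stimulated and clock genes were mostly lower as well. Of 19 interferon-stimulated genes in the table, of 37 listed, 15 (78.9%) were lower and 1 (5.26%) higher, with a median of -1.13. Of all genes 32.5% were lower and 37.9% higher. The counts of the list were the same against 0 h. With a mean of at least 500 required, 7 were lower than in the control. Xaf1, an interferon-induced apoptosis factor, fell from 321 and 427 to 36 and 14, and Gbp2, a guanylate-binding protein, from 884 and 936 to 154 and 101. Ifit2, an interferon-induced RNA-binding protein, was the higher member, at 676 and 589 in the control and 1530 and 1209 after serum. Of 18 clock genes 10 (55.6%) were lower and 3 (16.7%) higher. Hlf and Dbp, output factors of the clock, fell from 3151 and 2233 to 176 and 117 and from 293 and 389 to 29 and 56, and Dbp overlaps Sphk2. Of 26 p53 targets 10 (38.5%) were higher and 7 (26.9%) lower, near the shares of all genes (37.9% and 32.5%). Their log2 changes against doxycycline ran from -2.45 to 2.42. Trp53inp1 and Bbc3, a stress-induced nuclear protein and the cell death protein PUMA, fell from 2142 and 1990 to 363 and 391 and from 1057 and 1224 to 204 and 392.

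The rises of largest size against the doxycycline control included U90926, Cck, Tnnt2, Anxa8, Actg2, Ung, Ccn2, Cdc6 and Rgs16. U90926 and Cck, which encodes the peptide cholecystokinin, were listed at 0 in both control libraries and read 2034 and 763, and 744 and 369, after serum. At 0 h they read 3 and 7, and 21 and 4. Anxa8, an annexin, went from 0 and 12 to 196 and 262, and Rgs16, a regulator of G protein signalling, from 45 and 34 to 1464 and 822. Sizes and ranks of rises from values near 0 depend on the processing. Over the alternatives the log2 change against doxycycline ran from 7.29 to 10.99 for U90926 and from 6.06 to 9.54 for Cck. For Tnnt2 it ran from 4.66 to 7.77 and for Anxa8 from 4.13 to 7.83, against 4.97 to 5.20 for Cdc6.

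The 10 falls of largest size were Aldh3a1, Agtr2, Scara5, Trim30d, Prokr1, Osr2, Mrgprd, Ccdc148, Clec3b and Maf. Aldh3a1, an aldehyde dehydrogenase, and Scara5, a scavenger receptor, were listed at 0 in both serum libraries, against 146 and 137, and 113 and 69, in the control. Their sizes and ranks depend on the processing. Over the alternatives the log2 change against doxycycline ran from -7.23 to -4.22 for Aldh3a1 and from -6.83 to -3.59 for Scara5. For Osr2 it ran from -5.22 to -4.76. Osr2, a developmental zinc finger factor, fell from 1744 and 1746 to 46 and 57 (log2 change -5.06 against doxycycline and -5.09 against 0 h), and Maf, a leucine zipper factor, from 1181 and 1189 to 63 and 35. All 10 of these genes were also lower than at 0 h by the test, with log2 changes from -6.92 to -3.31, and none of the 10 was called between the control and 0 h. The rises named here were each called higher than at 0 h as well, with log2 changes from 3.01 to 7.78. Of these rises 3, Ung, Ccn2 and Cdc6, were called lower in the control than at 0 h. These falls and rises were chosen by their serum values, and the comparison with 0 h uses the same serum libraries. A shared direction against both references is therefore no independent check of them.

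Among the 467 genes called between the doxycycline control and 0 h, the largest rise by the naming rule was that of Adgrg1, an adhesion G protein-coupled receptor (chromosome 8, 94974751 to 95014217). It read 101 and 181 at 0 h, 961 and 1069 after 2 h of doxycycline, 3410 and 3907 after 6 h and 3536 and 3931 after 12 h. In serum it read 1797 and 1467 at 2 h, 582 and 704 at 6 h and 410 and 443 at 12 h. Serum at 12 h was therefore called higher than 0 h, by 1.65 ± 0.21 (adjusted p = 2.52e-06), and lower than the same-hour control, by -3.13 ± 0.21 (adjusted p = 5.62e-10), and the control itself had risen by 4.77 ± 0.21 (adjusted p = 1.59e-10). In that rise doxycycline and the 12 further hours of starvation cannot be told apart.

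Gli2, a transcription factor of Hedgehog signalling, rose in the control from 770 and 649 to 2388 and 2098 and was 366 and 399 after serum, a change of -2.55 against doxycycline and -0.89 against 0 h (adjusted p = 1.75e-09 and 0.000542). Vldlr, a lipoprotein receptor, rose in the control from 32 and 13 to 75 and 100 (log2 change 2.03, adjusted p = 0.032; 0.476 without the 0 h replicate 2). Trib3, a pseudokinase of the ATF4 response, rose from 82 and 104 to 312 and 259 (1.61, adjusted p = 0.0151; 0.118 without that library). After serum Vldlr read 9 and 11, a log2 change of -3.00 against doxycycline and -0.97 against 0 h (limma adjusted p = 4.84e-05 and 0.105). Trib3 read 112 and 206 after serum, with opposite signs: -0.90 against doxycycline and 0.71 against 0 h (adjusted p = 0.033 and 0.089). Fst, follistatin, which binds activin, rose in both arms, from 317 and 170 to 787 and 529 in the control and to 573 and 631 in serum. Its serum change was 1.37 against 0 h (adjusted p = 0.000176) and -0.10 against doxycycline (adjusted p = 0.743), and the control's own rise of 1.47 had an adjusted p of 0.00418 (0.139 without the 0 h replicate 2).

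Among genes called lower in the control than at 0 h, with groups that did not overlap and a mean of at least 50 at 0 h, the largest falls were those of Ccn2, Eme1, Ccl17, E2f2 and Vip. Eme1, a subunit of a DNA structure-specific nuclease whose locus overlaps Lrrc59 and Mrpl27, read 135 and 190 at 0 h, 43 and 35 in the control and 627 and 561 after serum. Vip, vasoactive intestinal peptide, read 1260 and 1568, 306 and 507, and 3484 and 3543 in the same order. Ccl17, a chemokine, read 137 and 220 at 0 h, 37 and 54 in the control and 86 and 85 after serum, and neither serum comparison passed (adjusted p = 0.0778 against doxycycline and 0.0569 against 0 h). Without the 0 h replicate 2, Eme1 and Vip kept their difference from 0 h (adjusted p = 0.039 and 0.0183), while Ccl17 and E2f2 did not (adjusted p = 0.348 and 0.384).

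**Figure D5:**
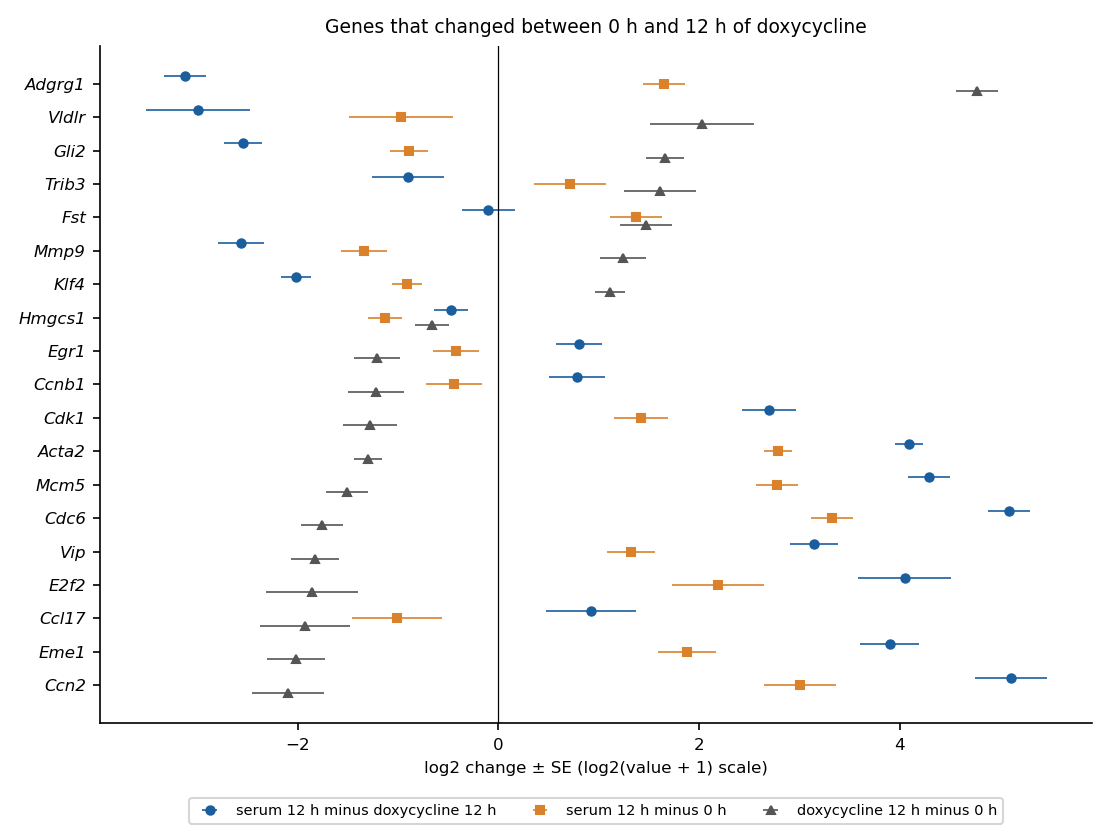
Log2 change ± SE of 19 genes that were called between doxycycline 12 h and 0 h, in the 3 comparisons. The 2 serum values of a gene are apart by the size of its triangle: Adgrg1 lies at 1.65 and -3.13, Ccnb1 at -0.44 and 0.78, and Hmgcs1 at -1.13 and -0.47.

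In the authors' deposited tables, 726 genes were listed for serum 12 h against 0 h in the EV line, 284 higher and 442 lower, and 413 of the 726 were in the expression table. For doxycycline 12 h against 0 h the authors' deposited table listed 4 genes, 1 higher and 3 lower. The authors' deposited table gave Adgrg1 a log2 fold change of 4.77, Ccn2 -2.12 and Eme1 -2.05, with adjusted p of 9.95e-146, 9.02e-14 and 0.00476. No gene is listed there below a 2.00 absolute log2 fold change. A table of serum against doxycycline at 12 h was not used here, so the values of that comparison rest on the limma fit.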

How the data were processed

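Polyadenylated RNA was sequenced as 150-base paired reads, per the labels' protocols. The values used are the normalized counts the authors deposited, rounded by them to whole numbers and treated here as a score, since depth had already been scaled out. The submitters' processing notes name FastQC, Trimmomatic, HISAT2, featureCounts, DESeq2 and the build mm10, with no versions or roles; annotation release and strand use are not given in the sources used here. The log2 fold changes and adjusted p-values of the authors' deposited tables were copied, not refitted. For 4 of the 6 libraries low values came in whole steps that correspond to 32100000 to 50300000 counted reads; for the other two no step was found, so whole reads were not recovered and no count model was run.

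limma 3.58.1 (R 4.3.3) was fitted to log2(value + 1) of all 11208 genes over all 22 libraries with 1 mean for each of 11 groups, empirical Bayes with a mean-variance trend and Benjamini-Hochberg adjustment, threshold 0.05. No gene failed the filter of 10 in 2 libraries; the lowest mean was 99.6. In data simulated for serum against doxycycline over 11208 genes, 100 genes were changed by 1 on the log2 scale and 100 by 2. All other genes were left equal between groups. Of the changed genes 82 and 99 were called in the right direction, and 13 unchanged genes were called. In the real comparison 70.4% of genes were called, so these rates do not carry over to it.

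Named genes were the 10 largest rises and 10 largest falls called in the main comparison whose groups did not overlap and whose higher group averaged 50 or more, the 5 of each for doxycycline against 0 h, the 2 of each per list, and a fixed set, 116 in all. Some of these genes are not reported here. The members and lists were chosen with earlier results of these data known. Of the gene identifiers, 10977 matched GENCODE M21 (GRCm38), used for positions and overlapping genes. Promoters matched by symbol for 8609 of the 11208 genes. Alternatives were a pseudocount of 8, no filter, a mean of at least 500, quantile normalization, equal totals, the replicate number as a block, 6 or 14 libraries, no variance trend, a test against a 2-fold change, and leaving out each library.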

Additional observations from a re-analysis of the deposited data

How the results depend on the processing

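The number of genes called for serum against doxycycline was 7891 and ran from 7028 to 7917 with 1 library left out; against 0 h it was 7367 and ran from 6290 to 7379. Tested against a 2-fold change rather than 0, the counts were 1366 and 820. For doxycycline against 0 h the count of 467 ran from 26 to 803 with 1 library left out, and was 176 in a fit of the 6 libraries, 248 in a fit of the 14 EV libraries, 295 with no variance trend and 1 against a 2-fold change. The cause of these differences was not tested. All other alternatives kept these 3 counts within 1.5 times. With the replicate number as a block, the counts were 4283 higher and 3693 lower, 4076 and 3385, and 99 and 418; the deviations of same-numbered libraries correlated at 0.311 (0 h with doxycycline), 0.037 (0 h with serum) and 0.184 (doxycycline with serum), and between -0.161 and 0.455 (0 h with 6 h of doxycycline) over all pairs of EV groups. Each negative value involved a 2 h group, and all pairs among the EV groups of 0, 6 and 12 h were positive. The labels give no shared source, so the main fit treated the samples as unpaired. Whether same-numbered libraries share a culture or day cannot be told from the labels. With the block, 38 of the 42 mitotic genes were lower in the control than at 0 h, against 34 without it. Of the named genes called in a comparison, 1 of 113 took both signs over the alternatives for serum against doxycycline, 0 of 106 for serum against 0 h and 0 of 36 for doxycycline against 0 h; of those not called, 2 of 3, 2 of 10 and 23 of 80 did. For serum against doxycycline, Fst ran from -0.39 to 0.18 with 1 library left out, mt-Co1, a mitochondrial gene at -0.29, was 0.19 with quantile normalization, and Fos was -0.08 with equal totals and ran from -0.37 to 0.40 with 1 library left out; for serum against 0 h, mt-Co1 ran from -0.32 to 0.13 over all alternatives and Ccnb1 was -0.91 without the 0 h replicate 1 and 0.03 without the 0 h replicate 2. In a fit that leaves a group with 1 library, that library is assumed to vary like the other groups. Of the 116 named genes, 86 kept direction and call for serum against doxycycline under every alternative run.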

Other observations

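Markers of the fibroblast state did not move as 1 block between the doxycycline control and serum. Thy1, a surface glycoprotein, rose from 5707 and 5885 to 19271 and 16368 (log2 change 1.62, limma adjusted p = 2.32e-09), and Col1a1, a chain of type I collagen, from 193735 and 159265 to 231241 and 319694 (0.63, adjusted p = 0.00427). Dcn, the proteoglycan decorin, fell from 21769 and 18176 to 4455 and 3548 (-2.32, adjusted p = 1.61e-09), and Vim, vimentin, from 129330 and 146686 to 90821 and 91386 (-0.60, adjusted p = 5.48e-05). Col1a2, the partner chain of Col1a1, and Prrx1, a mesenchymal homeobox factor, were not called (log2 differences -0.13 and -0.01, adjusted p = 0.422 and 0.929). Csf1r, the receptor of macrophage growth factor, was higher after serum at 365 and 735, against 102 and 67 in the control (2.63, adjusted p = 3.39e-05). These genes were in the marker lists and were described after their values were seen.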
